A study of Mus musculus with 8 samples.

Results

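The 10 genes described here encode core and output components of the circadian clock: *Per1*, *Per2*, *Per3*, *Cry1*, *Cry2*, *Clock*, *Nr1d1*, *Nr1d2*, *Dbp* and *Tef*. They were chosen as named members of the clock, with earlier results of these data known, and their symbols were matched to 10 of the 55471 genes in the count table, each symbol occurring once. RNA was sequenced from SV-LECs, an SV40-immortalized line of lymphatic endothelial cells from mouse mesenteric adventitial tissue, with 4 libraries from untreated cells and 4 from cells kept with TGFβ1 at 10 ng/ml for 72 h. The 4 samples of a group are described as technical replicates of 1 cell line, so the errors and p-values below cover the spread between libraries and not between independent experiments. The clock hour of harvest and any synchronization of the cultures are not given in the sources used here, and 1 harvest per condition cannot tell a changed level from a changed phase of a rhythm. Nor can bulk RNA tell less RNA in every cell from fewer cells expressing a gene.

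The mammalian clock is a transcriptional feedback loop. CLOCK and BMAL1 (the product of *Arntl*) bind E-boxes and activate the *Per* and *Cry* genes, whose products enter the nucleus and inhibit CLOCK and BMAL1. The same E-boxes drive *Nr1d1* and *Nr1d2*, encoding the heme-binding repressors REV-ERBα and REV-ERBβ, which compete with the ROR receptors at the *Arntl* gene, and *Dbp*, whose product activates genes through D-boxes together with the related PAR bZIP factors TEF and HLF. Cultured cell lines keep such a loop in each cell, and TGFβ is known to induce *Bhlhe40* (DEC1), a repressor at E-boxes.

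The short DNA elements of the loop were looked up near the starts of these genes. Windows from 250 bases before to 50 bases after the RefSeq start (GRCm38.p6) were found for 9 of the 10 genes, *Per2* having no entry. Searched on both strands, the E-box CACGTG occurred in 7.15% of all 32851 windows, the E-prime box CACGTT in 4.68%, the D-box (TTATGTAA, TTATGCAA, TTACATAA or TTACGTAA) in 1.78%, the ROR and REV-ERB element AGGTCA in 16.3% and the SMAD element CAGACA in 21.0%. None of these motifs overlapped another in the windows of the clock genes. An E-box lay in windows of 3 clock genes, an E-prime box in 3, a D-box in 2, the ROR and REV-ERB element in 3 (*Per1*, *Clock* and *Nr1d2*) and the SMAD element in 2 (*Per1* and *Nr1d2*). The cyclic AMP element TGACGTCA and the SMAD palindrome GTCTAGAC were in none of their windows, and were held by 1.79% and 0.213% of all windows. The clock counts are of genes with a match in any window, *Clock* having 3 windows and *Per1* and *Tef* 2 each. The shares are per window, so counts and shares are not in the same unit. The stretches below hold the E-boxes, E-prime boxes and D-boxes in capitals, 5′ to 3′ on the strand of the gene, and each ends before the start. A further *Tef* E-box, in the window of another start, lies in an annotated exon and is not printed. AACGTG is the E-prime box read from the other strand. A match is a run of letters and not a shown binding site.

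*Per1* (chr11:69098753-69098942, plus strand; inside the annotated gene, upstream of the RefSeq start; an E-box and a D-box): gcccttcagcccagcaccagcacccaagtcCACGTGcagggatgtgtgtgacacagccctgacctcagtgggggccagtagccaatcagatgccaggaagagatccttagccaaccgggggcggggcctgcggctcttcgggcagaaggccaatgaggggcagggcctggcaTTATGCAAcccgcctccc

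*Per3* (chr4:151044786-151044900, minus strand; upstream of the gene, in an intron of *Camta1*; a pair of D-boxes): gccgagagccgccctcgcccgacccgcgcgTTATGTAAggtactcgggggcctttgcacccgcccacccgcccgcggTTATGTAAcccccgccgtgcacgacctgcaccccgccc

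*Cry1* (chr10:85185079-85185163, minus strand; intergenic; an E-prime box and an E-box): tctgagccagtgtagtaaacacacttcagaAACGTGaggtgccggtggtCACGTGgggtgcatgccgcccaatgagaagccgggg

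*Cry2* (chr2:92434200-92434265, minus strand; intergenic; an E-prime box): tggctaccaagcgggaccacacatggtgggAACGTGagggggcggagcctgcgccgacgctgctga

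*Nr1d1* (chr11:98775384-98775435, minus strand; intergenic; an E-prime box): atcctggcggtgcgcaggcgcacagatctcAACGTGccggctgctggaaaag

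*Tef* (chr15:81811246-81811311, plus strand; in an intron of the gene; an E-box): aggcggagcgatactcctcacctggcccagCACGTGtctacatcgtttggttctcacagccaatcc

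Of the 10 clock genes, those that changed after TGFβ1 did so in opposite directions. *Per2*, *Nr1d1* and *Tef* rose, *Dbp*, *Cry1*, *Cry2*, *Nr1d2* and *Per3* fell, and *Per1* and *Clock* were not called. Thus 3 were significantly higher and 5 significantly lower when the likelihood ratio test of edgeR was held to a false discovery rate (FDR) of 0.05. Over all 13818 genes tested 75.6% were called, 37.6% higher and 38.0% lower, so being called sets none of the 10 apart. All 10 clock genes passed the filter on low counts. Their median absolute log2 fold change was 0.39, against 0.39 over all genes tested, and their median log2 fold change was -0.19, against -0.01 over all genes. A called change of more than 1 on the log2 scale was reached by 2 of the 10, *Per2* and *Dbp*, and by 17.5% of all genes. In 7 of the 10 every library of one group lay above every library of the other, as in 69.8% of all genes.

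**Figure D1:**
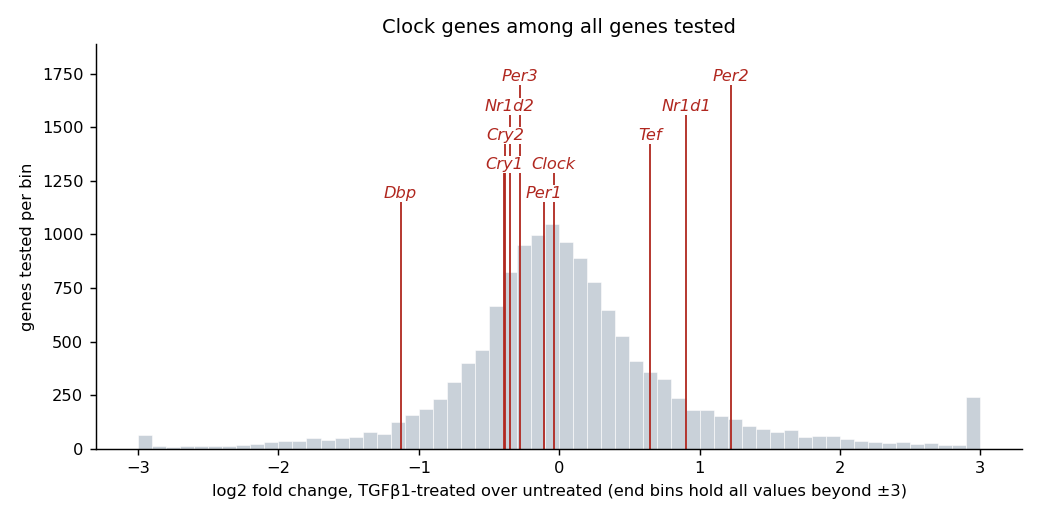
Histogram of the log2 fold change, TGFβ1-treated over untreated, of the 13818 genes tested (grey, genes per bin of 0.1; the end bins hold all values beyond 3), with a red line for each of the 10 clock genes. *Dbp* (-1.13) and *Per2* (1.23) stand on the flanks, while *Per1*, *Clock*, *Per3*, *Nr1d2* and both *Cry* genes lie within 0.40 of zero.

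The markers of the labelled cell type were expressed only in part. Of 9 lymphatic endothelial markers, 3 were expressed (*Pdpn*, *Flt4* and *Kdr*), whereas *Prox1*, *Lyve1*, *Pecam1* and *Cdh5* had at most 5 counts in any library and *Tie1* and *Ccl21a* had 0. The summed level of the 9 markers was 356 to 393 CPM (counts scaled to a common library size) in untreated and 359 to 369 in TGFβ1-treated libraries. Most of that sum was *Pdpn* (log2 fold change -0.13), while *Kdr* and *Flt4* rose by 0.93 and 0.44 on the log2 scale. The fibroblast or mural markers *Pdgfra*, *Pdgfrb* and *Col1a1* together held 2890 to 4244 CPM in untreated and 5451 to 6587 in treated libraries. Nearly all of it was *Col1a1* (3459 to 6057 CPM, group means), while *Pdgfra* fell from 160 to 57.8 CPM and *Pdgfrb* rose from 44.7 to 69.3 CPM. Leukocyte markers (*Ptprc* and *Cd3e* at 0 or 1 count, *Cd68* expressed) held 5.83 to 7.82 CPM in untreated and 14.9 to 16.9 in treated libraries, and epithelial markers (*Epcam*, *Cdh1*) at most 0.932. The part of such shifts in the values of the clock genes was not tested. Total counts were 18952504 to 26386941 per library, and the least counted clock gene in a library was *Per2* with 106 reads.

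The PER proteins are the limiting repressors of the loop, and their genes responded unequally. *Per2* (ENSMUSG00000055866, chr1:91415982-91459324, minus strand), which also answers to signals that reset the clock, stood at 6.36, 6.87, 7.29 and 5.38 CPM in untreated libraries 1 to 4 and at 15.4, 16.0, 13.6 and 15.8 CPM in TGFβ1-treated libraries 1 to 4. The lowest treated library was 0.90 above the highest untreated library on the log2 CPM scale. The mean rose from 6.48 ± 0.827 to 15.2 ± 1.09 CPM (SD, n = 4 per group), a log2 fold change of 1.23 (SE, the standard error, 0.103; edgeR FDR = 1.84e-32). This change was larger in size than those of 87.5% of all genes tested.

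*Per1* (ENSMUSG00000020893, chr11:69095217-69109960, plus strand), the paralogue with the most rapid response to cyclic AMP and glucocorticoids, stood at 29.9, 30.2, 27.2 and 26.6 CPM in untreated and at 27.7, 25.5, 24.7 and 27.6 CPM in treated libraries. The groups overlapped, and the log2 fold change of -0.11 was not significant (95% interval -0.24 to 0.02, edgeR FDR = 0.117). It passed the threshold with total counts as the only scaling (log2 fold change -0.18, FDR = 0.00969) and without untreated library 4 (log2 fold change -0.14, edgeR FDR = 0.0485). *Per3* (ENSMUSG00000028957, chr4:151003652-151044665, minus strand), a PER paralogue that is dispensable for the core rhythm, stood at 32.1, 27.8, 24.2 and 26.9 CPM in untreated and at 24.4, 22.1, 22.8 and 22.3 CPM in treated libraries. Its groups overlapped through untreated library 3 and treated library 1, which differed by 0.01 on the log2 scale. *Per3* fell by 0.28 on the log2 scale (SE 0.0814, edgeR FDR = 0.00103), and a fall beyond a fold change of 1.2 was not shown (edgeR glmTreat FDR = 0.325).

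**Figure D2:**
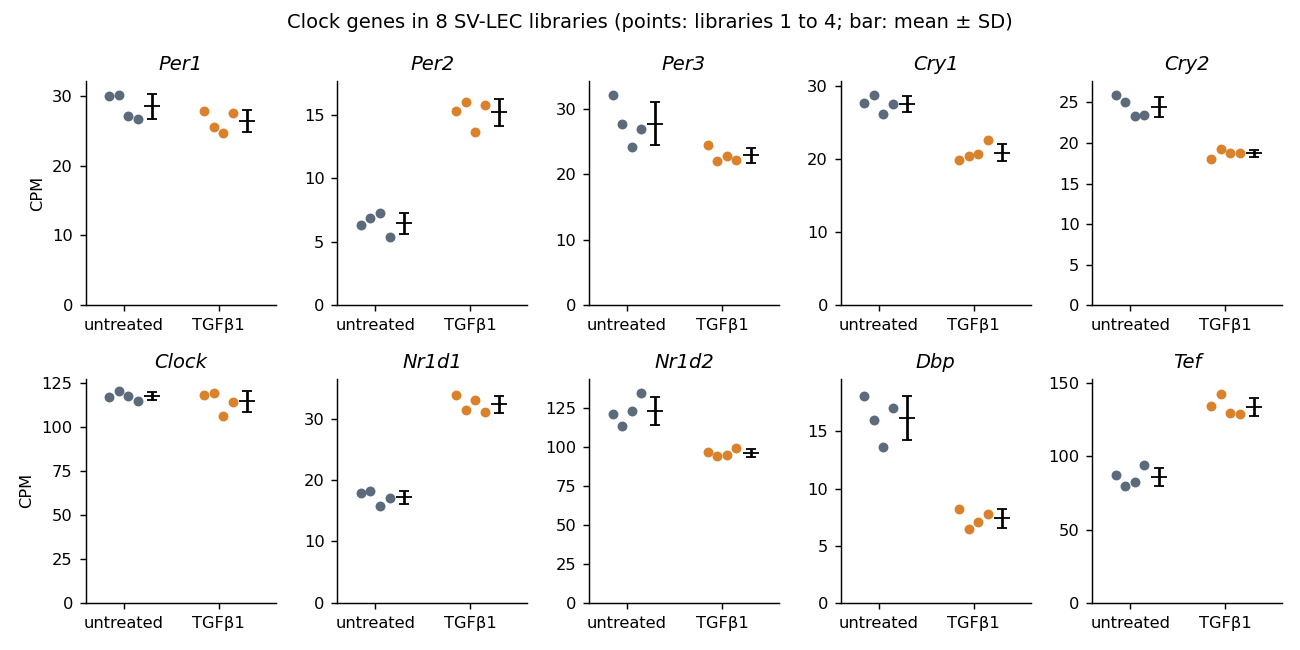
CPM of each clock gene, 1 panel per gene with its own linear axis from 0, in the untreated (grey) and TGFβ1-treated (orange) libraries 1 to 4 from left to right; the bar beside the points is the mean ± SD of 4 libraries. The groups are apart for 7 genes and overlap for *Per1*, *Per3* and *Clock*.

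The cryptochromes, which block the CLOCK and BMAL1 pair together with PER proteins, fell side by side. *Cry1* (ENSMUSG00000020038, chr10:85131700-85185064, minus strand) stood at 27.7, 28.8, 26.2 and 27.5 CPM in untreated and at 19.9, 20.5, 20.7 and 22.6 CPM in treated libraries. *Cry2* (ENSMUSG00000068742, chr2:92403646-92434043, minus strand) stood at 25.9, 25.1, 23.3 and 23.4 CPM in untreated and at 18.1, 19.2, 18.8 and 18.7 CPM in treated libraries. For both genes every treated library lay below every untreated one. *Cry1* fell by 0.39 on the log2 scale (SE 0.0636, edgeR FDR = 1.33e-09) and *Cry2* by 0.39 (SE 0.0634, edgeR FDR = 2.73e-09). On the linear scale these fitted changes are falls: *Cry1* fell by 23.9% and *Cry2* fell by 23.4%. The ratio of *Cry1* to *Cry2* per exon length was 2.13 in untreated and 2.11 in treated libraries.

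*Clock* (ENSMUSG00000029238, chr5:76209868-76304792, minus strand) encodes the DNA-binding partner of BMAL1 and is known for a flat rhythm in most tissues. It stood at 117, 121, 118 and 115 CPM in untreated and at 118, 119, 107 and 114 CPM in treated libraries. The groups overlapped, and the log2 fold change was -0.04 (95% interval -0.13 to 0.05, edgeR FDR = 0.459). The only setting in which it passed was scaling by total counts (log2 fold change -0.11, edgeR FDR = 0.0289), which lowered the median of all genes by 0.07 on the same scale.

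The REV-ERB genes, both repressors of *Arntl*, moved apart. *Nr1d1* (ENSMUSG00000020889, chr11:98767932-98775333, minus strand) stood at 17.9, 18.2, 15.8 and 17.1 CPM in untreated and at 33.9, 31.4, 33.1 and 31.1 CPM in treated libraries, with no overlap. It rose from 17.2 ± 1.08 to 32.3 ± 1.35 CPM (SD, n = 4 per group), a log2 fold change of 0.90 (SE 0.0651, edgeR FDR = 2.05e-43). *Nr1d2* (ENSMUSG00000021775, chr14:18204054-18239127, minus strand) stood at 121, 114, 123 and 135 CPM in untreated and at 96.8, 94.2, 94.6 and 99.4 CPM in treated libraries, again with no overlap. *Nr1d2* fell by 0.35 on the log2 scale (SE 0.0539, edgeR FDR = 1.42e-10). Of its 75-base stretches 2.3% also occur in a second annotated gene, whose reads cannot be told apart. The exons of *Nr1d1* share 263 bases, 8.55% of its exon length, with the opposite strand of *Thra*, which encodes a thyroid hormone receptor. Whether counting used the strand is not given in the sources used here, and *Thra* itself had a log2 fold change of 0.28 (SE 0.0480, edgeR FDR = 2.13e-08).

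The PAR bZIP genes, the output arm that acts on D-boxes, moved apart as well. *Dbp* (ENSMUSG00000059824, chr7:45705088-45710203, plus strand), whose RNA swings widely over the day in most tissues, stood at 18.1, 16.0, 13.6 and 17.0 CPM in untreated and at 8.22, 6.43, 7.09 and 7.80 CPM in treated libraries. The groups were apart by 0.73 on the log2 CPM scale. The mean fell from 16.2 ± 1.90 to 7.38 ± 0.792 CPM (SD, n = 4 per group), a log2 fold change of -1.13 (SE 0.110, edgeR FDR = 4.53e-24), larger in size than those of 85.5% of all genes. *Tef* (ENSMUSG00000022389, chr15:81802421-81826863, plus strand) stood at 86.9, 79.7, 82.1 and 93.9 CPM in untreated and at 134, 142, 129 and 129 CPM in treated libraries. It rose from 85.6 ± 6.25 to 134 ± 6.21 CPM (SD, n = 4 per group), a log2 fold change of 0.64 (SE 0.0567, edgeR FDR = 5.32e-29). *Dbp* shares 539 bases, 18.0% of its exon length, with the opposite strand of *Sphk2*, which encodes a sphingosine kinase and was not called (log2 fold change -0.15, edgeR FDR = 0.0940), though it passed without TGFβ1-treated library 4 (-0.22, edgeR FDR = 0.00771) and with total counts as the only scaling (-0.21, edgeR FDR = 0.0133).

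Ratios taken within a library do not depend on how libraries are scaled, and were computed for 8 pairs of related genes as counts per exon length. These pairs were chosen after the values had been seen, so their p-values add no support to the changes of the single genes. The ratio of *Per2* to *Per1* rose from 0.218 to 0.554 and that of *Per2* to *Per3* from 0.382 to 1.09 (geometric means of 4 libraries). Thus *Per2* went from the lowest of the PER genes to about the level of *Per3*. The ratio of *Nr1d1* to *Nr1d2* rose from 0.246 to 0.590 and that of *Tef* to *Dbp* from 2.02 to 6.92. For these 4 pairs all treated libraries lay above all untreated ones (two-sided exact permutation p = 0.0286, which is the lowest value this design can reach, and 0.0327 after Benjamini-Hochberg adjustment over the 8 pairs). The ratio of *Cry1* to *Cry2* changed by -0.01 on the log2 scale (SE 0.0486), and its groups overlapped (exact two-sided permutation test, p = 0.800, adjusted p = 0.800).

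**Figure D3:**
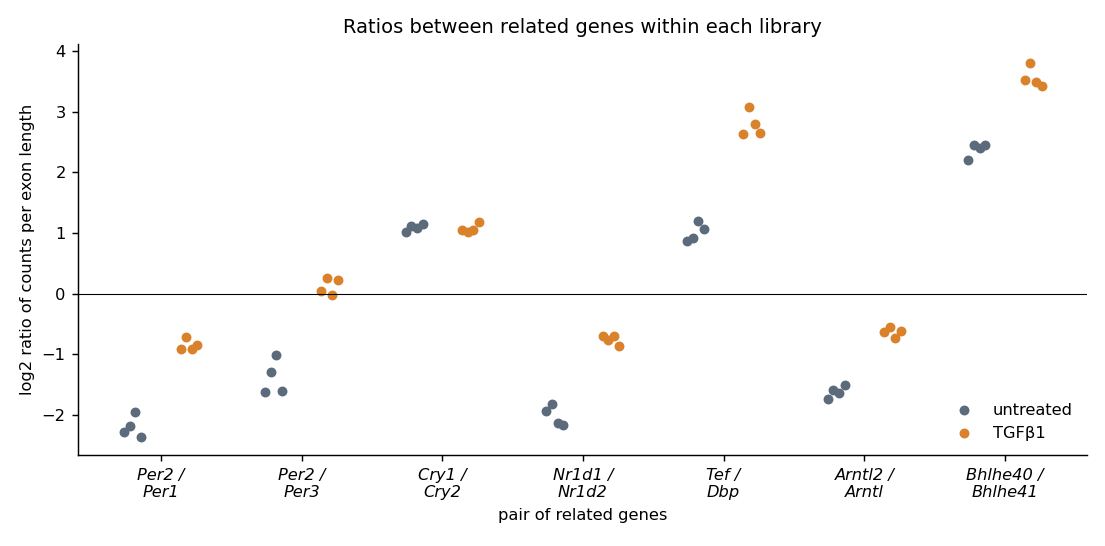
Log2 ratio of counts per exon length between 2 related genes, 1 point per library, in untreated (grey) and TGFβ1-treated (orange) libraries; zero is an equal level. The groups are apart in 6 of the 7 pairs drawn and overlap for *Cry1* to *Cry2*.

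Compared per exon length, as CPM per kilobase of exon (RPKM), the order of the levels changed. In untreated cells *Nr1d2* was highest (22.8 ± 1.63 RPKM, SD, n = 4), followed by *Tef* (10.9 ± 0.794), *Clock* (8.57 ± 0.173), *Cry1* (8.25 ± 0.325), *Nr1d1* (5.60 ± 0.350), *Dbp* (5.41 ± 0.636), *Per1* (5.06 ± 0.326), *Cry2* (3.87 ± 0.202), *Per3* (2.89 ± 0.341) and *Per2* (1.11 ± 0.141). Neighbours whose libraries overlapped were *Clock* and *Cry1*, *Nr1d1* and *Dbp*, and *Dbp* and *Per1*. After TGFβ1 the order was *Nr1d2* (17.8 ± 0.441 RPKM), *Tef* (17.0 ± 0.789), *Nr1d1* (10.5 ± 0.439), *Clock* (8.35 ± 0.421), *Cry1* (6.26 ± 0.353), *Per1* (4.68 ± 0.272), *Cry2* (2.96 ± 0.0761), *Per2* (2.60 ± 0.186), *Dbp* (2.47 ± 0.265) and *Per3* (2.38 ± 0.113). Here *Nr1d2* overlapped with *Tef*, *Per2* with *Dbp*, and *Dbp* with *Per3*. The lengths are unions of all annotated exons, so a gene with long rarely used exons is set too low.

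Between libraries of one group the clock genes varied about as much as other genes. Their median biological coefficient of variation from edgeR was 0.0495, against 0.0514 over all genes tested. It was highest for *Dbp* (0.0844), above that of 83.2% of all genes, and for *Per2* (0.0721), and lowest for *Clock* and *Cry2* (both 0.0410). These values are drawn by edgeR towards those of other genes. In untreated libraries the plain coefficient of variation of CPM had a median of 6.79% for the clock genes and 6.01% for all genes. In treated libraries these medians were 4.88% and 5.64%. After each group was centred on its own mean, Pearson correlations of log2 CPM over the 8 libraries ran, among the 45 pairs of clock genes, from -0.58 (*Cry2* and *Nr1d2*) to 0.80 (*Per3* and *Nr1d1*). These are descriptions of libraries that share their depth and preparation.

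The rest of the clock was represented by a list of 26 genes, of which 23 passed the filter; 8 were significantly higher and 12 significantly lower after TGFβ1, beside the 37.6% and 38.0% of all genes. The median log2 fold change of the 23 was -0.30. *Rorb*, with 0 counts, *Npas2*, with 0 to 6 counts per library and encoding a substitute for CLOCK, and *Fbxl21*, with 2 to 12 counts, were too low to be tested.

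Among activators and their partners, *Arntl*, the partner of *Clock*, stood at 14.9, 13.3, 13.7 and 14.9 CPM in untreated and at 19.8, 20.3, 19.5 and 18.8 CPM in treated libraries. Every treated library was higher, with a log2 fold change of 0.47 (SE 0.0721, edgeR FDR = 1.72e-10). Its paralogue *Arntl2* (BMAL2) rose from 3.49 ± 0.313 to 9.55 ± 0.680 CPM (SD, n = 4 per group), a log2 fold change of 1.46 (SE 0.116, edgeR FDR = 3.66e-37). *Rora*, whose product activates *Arntl* where REV-ERB proteins repress it, had a log2 fold change of 0.36 (SE 0.0807, edgeR FDR = 1.48e-05). For *Rora* a rise beyond a fold change of 1.2 was not shown (edgeR glmTreat FDR = 0.0714). Per exon length the ratio of *Arntl2* to *Arntl* went from 0.325 to 0.643 (exact two-sided permutation test, p = 0.0286, adjusted p = 0.0327). This pair too was chosen after its values were seen, so the p-value is a description only.

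Of the 4 further repressors 1 rose and 3 fell, where 37.6% of all genes rose and 38.0% fell. *Bhlhe40* (DEC1) stood at 132, 149, 147 and 140 CPM in untreated and at 214, 216, 207 and 195 CPM in treated libraries, a log2 fold change of 0.55 (SE 0.0503, edgeR FDR = 1.11e-26). *Bhlhe41* (DEC2), its paralogue at E-boxes, fell from 39.0 ± 1.84 to 25.1 ± 2.15 CPM (SD, n = 4 per group). Its log2 fold change was -0.63 (SE 0.0671, edgeR FDR = 1.24e-20). The exons of *Bhlhe41* share 1280 bases, 19% of their length, with the opposite strand of *Gm43909*, which had 1 to 3 counts per library. The ratio of *Bhlhe40* to *Bhlhe41* per exon length went from 5.20 to 11.8 (exact two-sided permutation test, p = 0.0286, adjusted p = 0.0327). The pair was chosen with these opposite changes already seen, so the p-value adds no support to them. *Nfil3* (E4BP4), which represses at the D-boxes that DBP activates, fell by 0.78 on the log2 scale (edgeR FDR = 3.98e-41). *Ciart*, which encodes an inhibitor of CLOCK and BMAL1, fell by 0.72 (edgeR FDR = 2.52e-07). Thus *Dbp* and its antagonist *Nfil3* were both lower, and *Hlf*, the remaining PAR bZIP gene, was not called (log2 fold change -0.38, edgeR FDR = 0.0551) except without untreated library 3 (-0.47, edgeR FDR = 0.0191) and with total counts only (-0.44, edgeR FDR = 0.0228).

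Of 8 clock-controlled output genes 6 were significantly lower and 2, *Klf10* and *Noct*, significantly higher, beside 38.0% and 37.6% of all genes; whether these shares differ was not tested. *Noct* (log2 fold change 0.16, edgeR FDR = 0.0163) was no longer called without untreated library 1 or 3 or TGFβ1-treated library 1 or 4 (edgeR FDR = 0.0513 to 0.0754). The call was also lost with total counts only (edgeR FDR = 0.177) and without a filter on low counts (edgeR FDR = 0.115). Nor did it hold at an FDR of 0.01 or with glmTreat against a fold change of 1.2. *Tsc22d3* (GILZ), also a glucocorticoid target, fell from 38.8 ± 1.83 to 16.4 ± 1.13 CPM (SD, n = 4 per group), a log2 fold change of -1.24 (edgeR FDR = 1.50e-77). *Wee1*, encoding a kinase that holds back entry into mitosis, had a log2 fold change of -1.03 (edgeR FDR = 8.26e-61). *Nampt*, the rate-limiting enzyme of NAD salvage, *Usp2*, a deubiquitinase, and *Klf9* fell by 0.82, 0.76 and 0.60 on the log2 scale. *Lonrf3* fell by 0.88 on 12 to 49 counts per library, with overlapping groups (edgeR FDR = 0.00355). The kinases and ubiquitin ligase subunits that set the stability of PER and CRY proteins had log2 fold changes between -0.30 and 0.30. Of the 5 tested genes, 2 were higher and 1 lower (37.6% and 38.0% of all genes). *Timeless*, a relative of a fly clock gene, fell by 0.27 on the log2 scale (edgeR FDR = 2.35e-07). For *Timeless* a fall beyond a fold change of 1.2 was not shown (edgeR glmTreat FDR = 0.359).

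**Figure D4:**
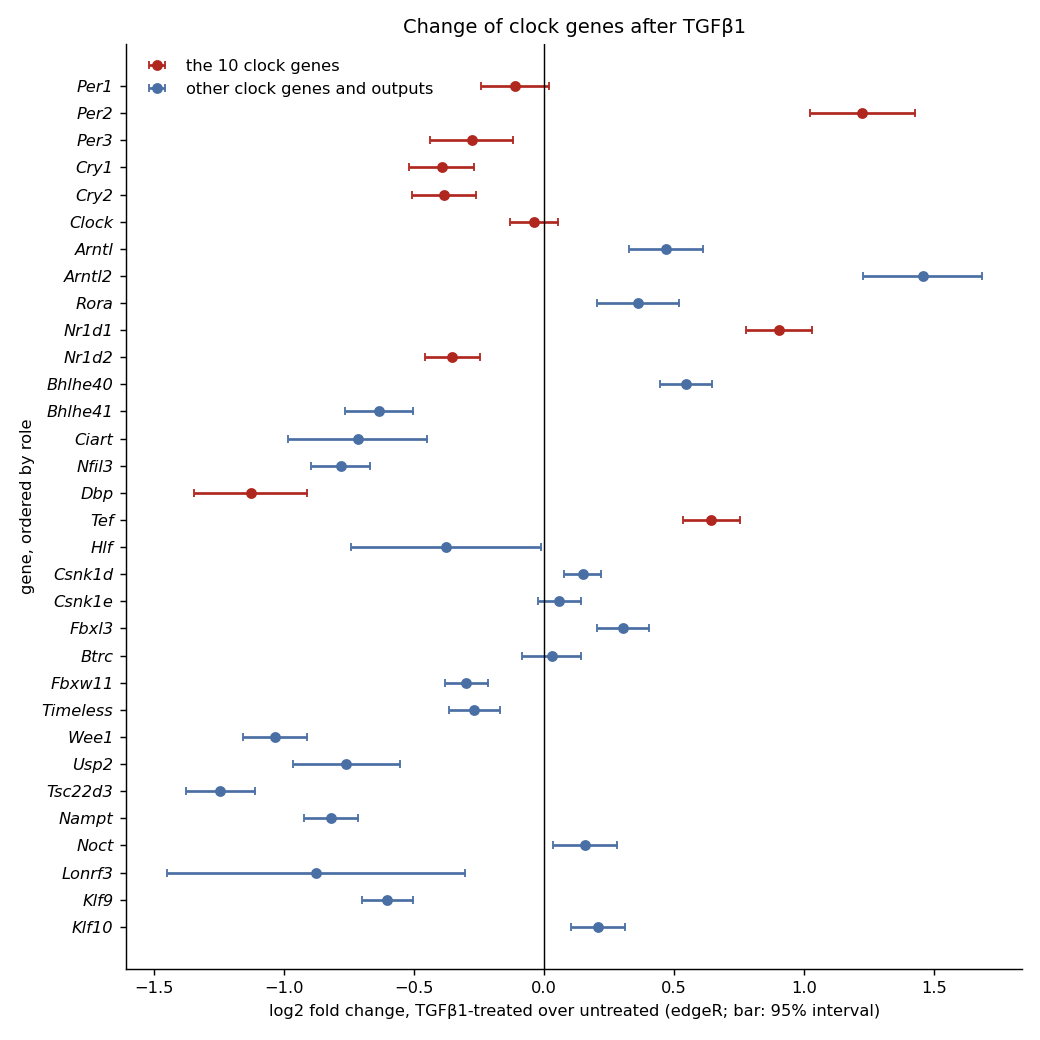
Log2 fold change (TGFβ1-treated over untreated, edgeR) with its 95% interval for the 10 clock genes (red) and 22 tested genes of the wider list (blue), ordered by role from the *Per* genes at the top to outputs at the bottom. *Tsc22d3* (-1.24) lies farthest left of those drawn and *Arntl2* (1.46) farthest right, with *Per2* (1.23) and *Dbp* (-1.13) the most changed of the 10 clock genes.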

How the data were processed

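The authors prepared stranded poly(A) libraries, read single ends of 75 bases, mapped them to GRCm38 and deposited a table of unnormalized gene counts. Their processing notes name bcl2fastq 2.20.0.422, STAR 2.7.3a and featureCounts 1.5.1. These counts went into edgeR 4.0.16 (R 4.3.3) with filterByExpr, TMM scaling, estimateDisp, glmFit and glmLRT, the test that the study names, with Benjamini-Hochberg FDRs over all 13818 genes tested and a threshold of 0.05. CPM used TMM-normalized library sizes, the intervals are normal approximations from the model's standard errors. Exon lengths and positions came from GENCODE M21 (GRCm38) and promoter windows from RefSeq (GRCm38.p6). Whether counting used the strand, and the annotation release, are not given in the sources used here. Alternatives were the quasi-likelihood test, DESeq2 1.42.0, other scalings, filters and thresholds, and each library left out. The tests were also run on simulated counts in which few genes changed, whereas 75.6% of genes were called here. That run therefore cannot test the scaling under so many changes. Same-group libraries differed beyond sampling noise (chi-square per degree of freedom 2.37 to 7.84), so all 8 were kept as separate libraries. This does not show that they came from separate cultures. Members and lists were chosen with earlier results of these data known. Named genes were the 10 clock genes, *Arntl*, cell markers, and genes with exons overlapping those of *Dbp*, *Nr1d1* or *Bhlhe41*. From the wider list came genes called with an absolute log2 fold change above 0.5 or too low to test. *Rora*, *Csnk1e*, *Btrc*, *Hlf*, *Noct*, *Klf10* and *Timeless*, and the 8 pairs for ratios, were chosen after their values were seen. Libraries with the same number in both groups did not deviate together, so no replicate block was used. 1 gene of the wider list, and the pair that holds it, entered the counts and the adjustment but is not reported here.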

Additional observations from a re-analysis of the deposited data

Results flagged for a closer look

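Among 66 groups of 4 libraries (the 33 tested genes in each condition), 4 had a single library far from the other 3 by Dixon's 95% criterion, where chance gives about 1 in 20. None was a group of the 10 clock genes. *Arntl2* was at 3.96 CPM in untreated library 4, with 3.37 in the nearest library. *Rora* was at 17.6 CPM in untreated library 2, with 15.4 in the nearest. *Bhlhe41* was at 22.0 CPM in TGFβ1-treated library 2, with 25.8 in the nearest, and *Csnk1e* at 100.3 CPM in untreated library 3, with 105 in the nearest. In all 4 genes the treated libraries lay on one side of all untreated ones, the outlying library included.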

How the results depend on the processing

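The count of clock genes called higher was 3 in all 18 alternatives, and that of clock genes called lower ran from 4 (glmTreat against a fold change of 1.2) to 7 (total counts only). With one library left out at a time these counts were 3 to 3 and 5 to 6, and in the wider list 7 to 8 higher and 12 to 13 lower. Of the wider list, 3 genes instead of 8 were higher by more than a fold change of 1.2 with glmTreat, which over all genes called 3582 higher and 3290 lower, against 5198 and 5251. Direction turned in 2 genes that were not called in either case: *Csnk1e* with total counts only (log2 fold change -0.00797) and *Btrc* with total counts only (-0.0382) and without a filter on low counts (-0.00167). The replicate block gave 3 higher and 5 lower clock genes and changed no call among them; deviations of same-numbered libraries correlated between -0.271 and -0.0366. Of 629 single-gene values under alternatives, those of *Sphk2* and *Thra* included, 603 kept their direction and side of the threshold. Part of this was fixed in advance. A prior count of 2 in the fit leaves the FDRs as they are, and the stricter threshold and glmTreat reuse the main fold changes. Depth limits *Npas2* and *Fbxl21*, with 12 counts or fewer in treated libraries.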
